A study of Mus musculus with 16 samples.

Results

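The genes described here are the collagens, laminins and integrins of the face-forming tissues of the mouse embryo. They were taken as every row whose symbol is a collagen alpha chain, a laminin alpha, beta or gamma chain, or an integrin alpha or beta subunit. By this rule 48 of 15876 rows were chosen, made up of 28 collagens, 7 laminins and 13 integrins, of which 9 were alpha and 4 beta subunits. RNA from dissected regions of CD1 embryos, an outbred strain, was sequenced in 16 libraries of the embryonic days E8.5, E9.5 and E10.5. The mesenchymal class held 8 libraries, namely E8.5 mesoderm, E9.5 cranial mesenchyme, mandibular arch and maxillary arch, and E10.5 lateral nasal prominence, medial nasal prominence, mandibular arch and maxillary arch. The epithelial class held the epidermal ectoderm of E9.5 and the olfactory pit of E10.5. The neural class held 6 libraries, which were, at E8.5, the floor plate, the caudal brain neural epithelium and the non-floor plate neural epithelium, and, at E10.5, regions of neural epithelium named lateral prominence, central and dorsal control by the labels. The classes were formed for these comparisons from the region names, and no embryo carried a treatment or an engineered allele. A region at a stage was profiled 1 time only, so a class is made up of different regions, and a test between classes measures the spread between regions and not between repeats of a region.

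Collagen chains wind into triple helices. Fibrillar collagens form the cables of loose connective tissue, bone and cartilage, type IV collagen forms the sheet of the basement membrane, and the other types attach to fibrils, span the cell membrane or anchor sheets to fibrils. Laminins are trimers of 1 alpha, 1 beta and 1 gamma chain that start a basement membrane at the surface of epithelia, vessels and neural tube, and integrins are receptors of 1 alpha and 1 beta subunit that bind cells to these matrices. In the early face, epithelia rest on a basement membrane, neural crest and mesoderm cells beneath them form a loose mesenchyme, and vessels within that mesenchyme carry a basement membrane of their own.

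Promoter windows of 4 collagen genes are shown first because these genes are among those that differed between classes. All are RefSeq sequences of build GRCm38.p6, with 250 bases before and 50 bases after the annotated start, printed on the strand of the gene. Col4a1 and Col4a2, the main chains of type IV collagen, are a head-to-head pair. The Col4a1 window is chr8:11312777-11313076 on the minus strand and the Col4a2 window is chr8:11312555-11312854 on the plus strand. The annotated starts are 21 bases apart, and capitals mark the 78 bases that both windows share (chr8:11312777-11312854), read in opposite directions.
Col4a1: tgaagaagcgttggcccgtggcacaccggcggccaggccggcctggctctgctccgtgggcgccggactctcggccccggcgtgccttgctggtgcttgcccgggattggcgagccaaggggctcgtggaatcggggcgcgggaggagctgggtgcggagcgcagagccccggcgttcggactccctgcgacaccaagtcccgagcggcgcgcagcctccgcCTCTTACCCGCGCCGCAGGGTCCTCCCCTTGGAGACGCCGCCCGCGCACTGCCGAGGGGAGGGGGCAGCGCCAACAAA
Col4a2: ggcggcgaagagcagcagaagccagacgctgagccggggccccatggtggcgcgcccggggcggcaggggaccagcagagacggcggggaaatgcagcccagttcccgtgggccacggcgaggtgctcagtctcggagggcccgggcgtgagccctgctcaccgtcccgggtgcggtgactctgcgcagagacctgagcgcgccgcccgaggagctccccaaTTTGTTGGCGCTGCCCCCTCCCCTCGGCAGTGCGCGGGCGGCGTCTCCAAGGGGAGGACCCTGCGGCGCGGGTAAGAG

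Col1a2, a chain of type I collagen, has its window at chr6:4505368-4505667 on the plus strand, and Col3a1, the chain of type III collagen, at chr1:45311288-45311587 on the plus strand. Capitals mark matches to 3 promoter motifs searched on both strands, the CCAAT box (CCAAT), the GC box (GGGCGG) and the TATA box (TATAAA), and no match overlaps another.
Col1a2: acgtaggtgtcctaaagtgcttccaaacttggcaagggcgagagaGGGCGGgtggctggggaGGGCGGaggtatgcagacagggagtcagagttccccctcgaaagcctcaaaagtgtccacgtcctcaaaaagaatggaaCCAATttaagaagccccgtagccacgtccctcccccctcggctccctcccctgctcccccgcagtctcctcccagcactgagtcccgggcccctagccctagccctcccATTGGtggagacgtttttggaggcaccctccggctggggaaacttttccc
Col3a1: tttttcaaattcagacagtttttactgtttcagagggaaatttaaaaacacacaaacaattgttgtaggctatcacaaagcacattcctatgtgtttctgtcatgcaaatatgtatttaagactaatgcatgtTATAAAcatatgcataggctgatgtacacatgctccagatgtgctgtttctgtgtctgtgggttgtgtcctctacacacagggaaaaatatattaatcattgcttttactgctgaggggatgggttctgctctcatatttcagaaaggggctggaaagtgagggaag

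The Col1a2 window held 1 CCAAT match on each strand and 2 GGGCGG matches, and no TATAAA. The Col3a1 window held 1 TATAAA match, 117 bases before the annotated start, and no CCAAT or GGGCGG. Of all 32851 promoter windows of this length, 37.4% held CCAAT, 35.7% held GGGCGG and 13.6% held TATAAA. Windows were found for 37 of the 48 genes, 42 windows in all, of which 33.3%, 59.5% and 7.14% held these motifs in the same order. A match describes the letters and is not a binding site.

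The deposited value of a gene is its ratio to its own median over the 16 libraries, so it compares libraries for 1 gene and does not compare genes. Low values had been raised to a floor, seen as a lowest value that at least 2 libraries share. That was so in 37 of the 48 genes, and a fold against a library at the floor is a lower limit. A level is the value of a gene over its lowest value. Libraries also differed in their overall scale. The median gene without a floor lay between 0.82 below (E10.5 maxillary arch) and 0.40 above (E8.5 mesoderm) its mean on the log2 scale, and 6 of the 8 E10.5 libraries were low. The labels give the depth as over 40000000 reads per library, and the exact totals are unknown.

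Marker lists were set against the labels. The 10 mesenchyme markers had a mean log2 level of 1.97 to 3.01 in 7 mesenchymal libraries, and of 0.05 in the library labelled medial nasal prominence. That library had 3.41 for the 8 neural epithelium markers, against 0.03 to 0.73 in the other 7 mesenchymal libraries and 1.71 to 3.20 in the neural libraries. Its markers therefore go against its label, and for each gene called in a comparison that includes it the outcome without it is given too. The 10 measured surface epithelium markers stood at 3.92 and 3.95 in epidermal ectoderm and olfactory pit, against 0.00 to 0.19 in mesenchymal libraries and 0.01 to 1.09 in neural libraries, with floor plate the highest of these. The column headers and the labels name the central and dorsal control libraries the other way round. The labels were followed, and since both libraries are of 1 class and stage the tests between groups do not depend on it.

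Across the 16 libraries, 37 of the 48 genes were above their floor in at least 3 libraries and could enter the tests. In 15 genes the highest value was at least 10 times the lowest, and in 9 genes it was under 2 times the lowest. The highest value lay in a mesenchymal library for 33 genes, in a neural library for 9 and in an epithelial library for 6, the classes holding 8, 6 and 2 libraries. E8.5 mesoderm alone held the highest value of 14 genes, and the library labelled dorsal control that of 6.

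**Figure D1:**
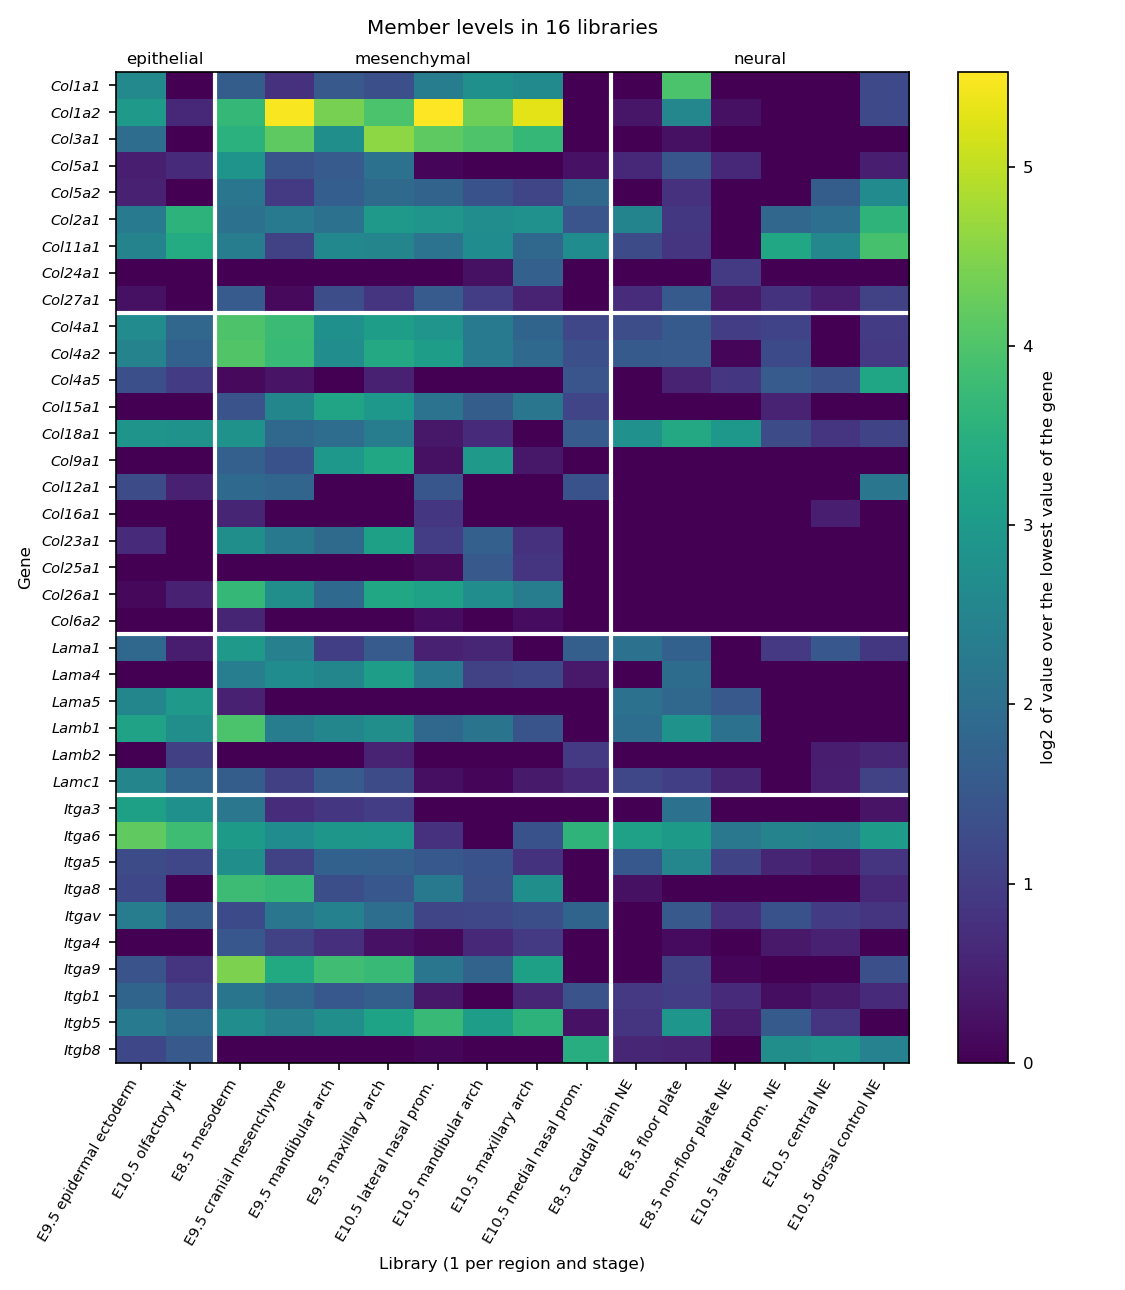
Heat map of the log2 level (value over the lowest value of each gene) of the 37 genes that exceeded their floor in at least 3 libraries, in rows, across the 16 libraries in columns, with epithelial libraries on the left, mesenchymal in the middle and neural on the right. Col1a2, Col3a1, Col26a1 and Itga9 are high in 7 mesenchymal libraries and low in the library labelled medial nasal prominence, while Itgb8 is high in that library and in the E10.5 neural libraries.

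Mesenchymal libraries were compared with neural libraries to ask which matrix and receptor genes separate the connective tissue of the face from its neural tissue. Of the 37 genes tested, 8 were higher in mesenchymal libraries and 0 were lower, by limma with an adjusted p (Benjamini-Hochberg) below 0.05 and a difference of 2-fold or more. Of all 12851 genes tested, 0.591% were higher and 0.514% lower by the same rule. The median log2 difference was 0.51 over the 37 genes (0.31 with genes at the floor throughout a class set to their lower limit), against -0.01 over all genes tested. The 8 genes were the fibrillar chains Col1a2 and Col3a1, the basement membrane chains Col4a1, Col4a2 and Col15a1, the membrane-spanning collagen Col23a1, the collagen Col26a1, and the integrin subunit Itga9. Leaving out 1 library at a time gave 11 calls without the library labelled medial nasal prominence (1.31% of all genes then higher and 1.93% lower), 6 without the E10.5 maxillary arch and 2 to 5 without any of the other 14 libraries, so the number of calls rests on single libraries. All 8 genes were called without the library labelled medial nasal prominence, with limma adjusted p of 2.75e-05 to 0.0035. In whole tissue, fewer cells of a type and less RNA per cell cannot be told apart.

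Fibrillar collagens of loose connective tissue showed the largest differences. Col1a2, the alpha-2 chain of type I collagen, had values of 0.146 to 6.77 in mesenchymal libraries with a median of 2.998, against 0.146 to 0.860 in neural libraries with a median of 0.180. The 7 mesenchymal libraries other than the one labelled medial nasal prominence all lay above the highest neural library (floor plate), and that one library lay at the floor. The fitted log2 difference was 3.35 ± 0.74 (SE, 8 against 6 libraries, limma adjusted p = 0.037), and without that library it was 3.94. Col3a1, the type III chain that accompanies type I in soft tissue, had values of 0.392 to 9.40 (median 5.66) in mesenchymal libraries, against 0.392 to 0.467 (median 0.392) in neural libraries. Its highest value was that of the E9.5 maxillary arch, and again 7 of 8 mesenchymal libraries lay above all 6 neural libraries, 5 of which were at the floor. The log2 difference was 3.31 ± 0.56 (limma adjusted p = 0.011), and Col3a1 was called in each of the 16 fits that left out 1 library, against 4 of 16 for Col1a2.

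Col1a1, the alpha-1 chain that pairs with Col1a2 in type I collagen, did not follow this split. It had values of 0.410 to 2.82 (median 1.24) in mesenchymal libraries, against 0.410 to 6.42 (median 0.410) in neural libraries, and its highest value of all was that of the E8.5 floor plate. The classes overlapped, and the log2 difference was 0.77 ± 0.64 (limma adjusted p = 0.754). The mean log2 level of the surface epithelium markers was also higher in the floor plate library than in the other 5 neural libraries. In floor plate the keratins Krt8, Krt18 and Krt19 stood at 6.49, 8.21 and 8.69, Grhl2 at 2.52 and Epcam at 1.59. The other markers of that list, Cdh1, Cldn6, Esrp1, Grhl3 and Trp63, were at their floor there. The part of such cells in the Col1a1 value was not tested.

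Col5a1 and Col5a2, chains of type V collagen, which nucleates type I fibrils, had log2 differences of 0.51 ± 0.44 and 0.76 ± 0.38 (limma adjusted p = 0.768 and 0.468), and neither was called. Col5a1 was highest in E8.5 mesoderm at 4.97 and then in the E9.5 maxillary arch at 2.90, against at most 1.90 in a neural library. Col5a2 was highest in the library labelled dorsal control at 2.63, so its classes overlapped. Col24a1, a minor fibrillar chain linked to type I fibrils, was above the floor in 3 libraries only, at 3.25 in the E10.5 maxillary arch, 1.18 in the E10.5 mandibular arch and 1.92 in the E8.5 non-floor plate library. Over the 9 fibrillar chains tested, 2 were higher, 0 were lower and the median log2 difference was 0.60.

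**Figure D2:**
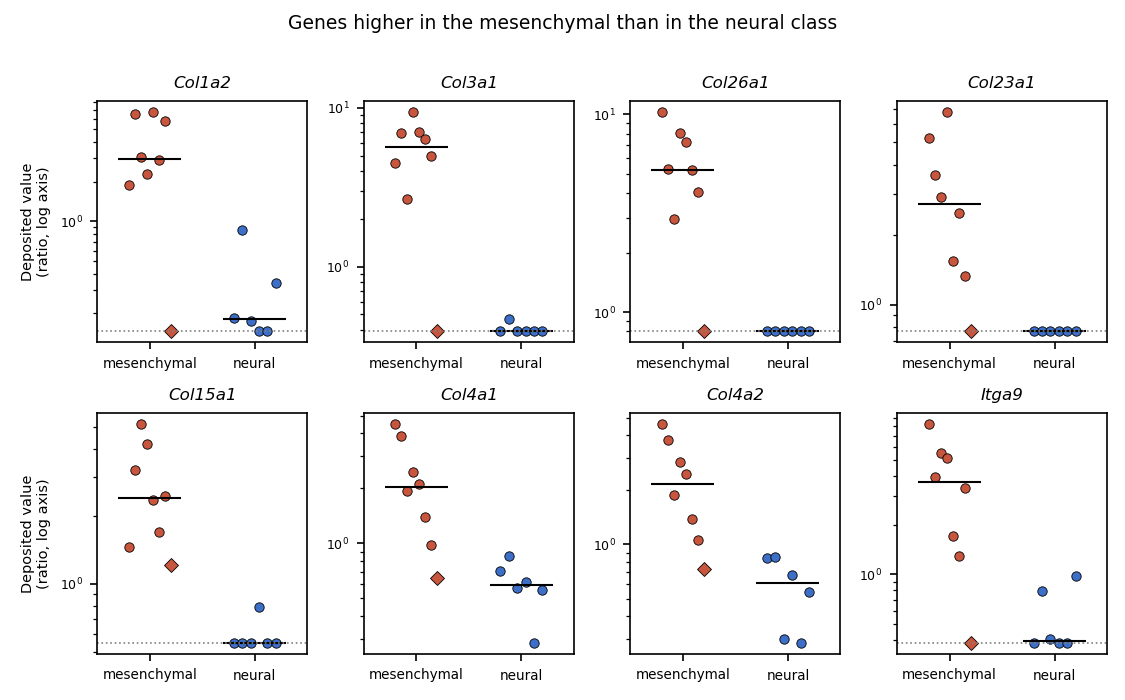
Deposited values (ratio to the median of the gene, log axis) of the 8 genes called between classes, with mesenchymal libraries left of neural libraries, 1 point per library, a black bar at the median, a dotted line at the floor and a diamond for the library labelled medial nasal prominence. For Col15a1 all 8 mesenchymal points lie above the neural points, and for the other 7 genes the diamond alone lies among the neural points.

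Basement membrane chains made up a second group. Col4a1 had values of 0.647 to 4.52 (median 2.03) in mesenchymal libraries, against 0.285 to 0.849 (median 0.593) in neural libraries. Col4a2 had 0.728 to 4.64 (median 2.15), against 0.285 to 0.855 (median 0.607). Both were highest in E8.5 mesoderm and next in E9.5 cranial mesenchyme, and 7 of 8 mesenchymal libraries lay above all neural libraries. The log2 differences were 1.73 ± 0.39 for Col4a1 (limma adjusted p = 0.041) and 1.90 ± 0.41 for Col4a2 (limma adjusted p = 0.031), called in 2 and 8 of the 16 fits that left out 1 library. Without the library labelled medial nasal prominence they were 1.95 and 2.11. Col15a1, a collagen of the multiplexin type found at the outer side of vessel and muscle basement membranes, had values of 1.21 to 5.16 (median 2.42) in mesenchymal libraries, against 0.546 to 0.787 (median 0.546) in neural libraries. It was the 1 gene of the 8 for which the classes did not overlap at all, with a log2 difference of 2.07 ± 0.29 (limma adjusted p = 0.0047), and it was called in each of the 16 fits that left out 1 library.

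Endothelial markers were likewise higher in mesenchymal than in neural libraries. The summed level of the 10 endothelium markers, all of which were measured, ranged over 19.0 to 97.6 in mesenchymal libraries, 10.3 in both epithelial libraries and 10 to 13.9 in neural libraries, where 10 is the sum with every marker at its floor. Cdh5, the cadherin of vessel walls, and Kdr, the main receptor of vascular growth factor, were highest in E8.5 mesoderm at 9.44 and 11.9. Cdh5 was at its floor in both epithelial libraries and in 5 of 6 neural libraries, and Kdr in all 8 of these. Epithelial libraries had Col4a1 values of 1.81 and 1.02 and Col4a2 values of 1.59 and 0.939 in epidermal ectoderm and olfactory pit, with endothelial markers near the floor. As deposited, epidermal ectoderm lay above both E10.5 arches (Col4a1 1.39 and 0.984, Col4a2 1.37 and 1.06 in the mandibular and maxillary arch). This order rests on the scale of the libraries. The median gene without a floor lay at 0.34 in epidermal ectoderm, and at -0.70 and -0.82 in the E10.5 mandibular and maxillary arch, on the log2 scale. Relative to that gene, both arches lay above epidermal ectoderm for Col4a1 and Col4a2. The part of vessel cells in the Col4a1, Col4a2, Col15a1 and Lama4 values was not tested. Blood markers were present too, with a mean log2 level of the 10 erythroid markers of 1.52 to 5.34 in mesenchymal libraries, 1.93 and 3.54 in epithelial libraries and 0.02 to 1.73 in neural libraries.

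Lama4, the laminin alpha chain of vessel walls and other mesenchymal basement membranes, had values of 0.758 to 4.87 (median 2.88) in mesenchymal libraries, against 0.579 to 2.25 in neural libraries, of which floor plate alone was above the floor. Its log2 difference of 1.63 ± 0.42 was not called (limma adjusted p = 0.073). Without the library labelled medial nasal prominence it was 1.85 and was called (limma adjusted p = 0.010). Col18a1, the second multiplexin and the source of endostatin, had a log2 difference of -0.60 ± 0.49 (limma adjusted p = 0.747) and overlapped between classes. The same held for the laminin chains Lama1, Lamb1, Lamb2 and Lamc1, whose log2 differences lay between 0.02 and 0.97 and were not called.

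Of the remaining collagens, Col26a1, first described in testis and ovary of the mouse, had values of 0.801 to 10.3 (median 5.26) in mesenchymal libraries and was at the floor of 0.801 in all 6 neural libraries. It was also at the floor in the library labelled medial nasal prominence. The lowest of the other 7 mesenchymal libraries, E9.5 mandibular arch, was at least 3.70-fold above that floor, and the difference was called (limma adjusted p = 0.034). Col23a1, a transmembrane collagen that can be shed from the cell, had values of 0.769 to 6.77 (median 2.70) in mesenchymal libraries, and it too was at the floor in all neural libraries and in the one labelled medial nasal prominence. The lowest of the other 7, E10.5 maxillary arch, was at least 1.73-fold above the floor, and the call stood at the border (limma adjusted p = 0.04996). Col23a1 was called in 2 of the 16 fits that left out 1 library, and Col26a1 in 7 of 16. Both genes entered the test through mesenchymal and epithelial libraries. With all 6 neural values at the floor, their tests hold no spread between neural regions.

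Among integrins, Itga9 was called. Its product pairs with the beta-1 subunit and binds tenascin-C and other ligands. It had values of 0.382 to 8.31 (median 3.65) in mesenchymal libraries, against 0.382 to 0.975 (median 0.392) in neural libraries, with E8.5 mesoderm and both E9.5 arches the highest. All mesenchymal libraries other than the one labelled medial nasal prominence lay above the neural libraries, and the log2 difference was 2.39 ± 0.55 (limma adjusted p = 0.045, called in 1 of 16 fits that left out 1 library, the one without that library, where it was 2.79). Itga8, a receptor subunit for nephronectin best known in the developing kidney, had values of 0.522 to 7.28 in mesenchymal libraries, against 0.522 to 0.795 in neural libraries. The same 7 libraries lay above, with a log2 difference of 1.94 ± 0.49 that was not called (limma adjusted p = 0.064) and 2.24 that was called without the library labelled medial nasal prominence (limma adjusted p = 0.004). Itgb5, a beta subunit that pairs with the alpha-v subunit and binds vitronectin, had values of 0.237 to 2.62 in mesenchymal libraries, against 0.196 to 1.46 in neural libraries, where floor plate was highest. Its log2 difference was 1.62 ± 0.52 (limma adjusted p = 0.153), or 1.97 and called without that library (limma adjusted p = 0.008).

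The general subunits differed less. Itgb1, the common beta subunit of matrix receptors, had a log2 difference of 0.55 ± 0.32 (limma adjusted p = 0.549). Itgav, Itga4 and Itga5, which bind vitronectin or fibronectin, had 0.74 ± 0.27, 0.49 ± 0.22 and 0.20 ± 0.38 (limma adjusted p = 0.241, 0.385 and 0.924), and none of the 3 was called. Itgb8, the partner of the alpha-v subunit that activates TGF-beta around brain vessels, ran the other way at -1.09 ± 0.60 (limma adjusted p = 0.523). It had 8.72 in the library labelled medial nasal prominence and at most 0.836 in the other 7 mesenchymal libraries, against 4.34 to 5.89 in the 3 E10.5 neural libraries and 0.796 to 1.19 in the 3 E8.5 neural libraries.

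Since the classes hold different stages, the comparison was also made with embryonic day in the fit and within stages. With embryonic day in the fit limma called 4 of the 37 genes higher and 0 lower, against 0.366% and 0.28% of all genes tested. These were Col3a1, Col15a1, Col4a1 and Col4a2 (limma adjusted p = 0.014 to 0.0498), and Col1a2, Col23a1, Col26a1 and Itga9 were not called. Among the E10.5 libraries (4 against 3) limma called 0 of 32 genes, and 0% of all genes tested, with 786 genes at an unadjusted p under 0.05. Without the library labelled medial nasal prominence (3 against 3) it called 13 of 29 genes higher and 3 lower, against 1.92% and 9.57% of all genes tested, so that the share lower was near that of all genes. All 8 genes named above were among the 13, and the others were Col1a1, Itga8, Itgb5, Lama4 and Lamb1, which encodes the common laminin beta chain. Col3a1, Col23a1, Col26a1, Lama4 and Lamb1 were at the floor in all 3 neural libraries. They could enter this test only because all 3 mesenchymal libraries lay above it. This fit was chosen after seeing the data and reuses libraries of the comparison above. The 3 lower genes were Itgb8 (log2 difference -2.66 ± 0.34, limma adjusted p = 0.0034), Itga6, a laminin receptor subunit (-1.92 ± 0.44, limma adjusted p = 0.028), and Col4a5, a minor type IV chain (-2.08 ± 0.47, limma adjusted p = 0.028). Col4a5 likewise entered only through the neural libraries, being at the floor in all 3 mesenchymal ones. Among the libraries of E8.5 and E9.5 (4 against 3) it called 11 of 30 genes higher and 1 lower, against 4.09% and 1.91% of all genes tested. The 8 genes were again included, with Col5a2, Col9a1 and Itga8 added, and the lower gene was Lama5, a laminin chain of epithelia. Col9a1, Col15a1, Col23a1 and Col26a1 were at the floor in all 3 neural libraries there, and entered through the mesenchymal libraries alone. In that subset all 3 neural libraries and 1 of the 4 mesenchymal libraries are of E8.5.

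Cartilage collagens were measured well before cartilage forms. Col2a1, the main fibrillar collagen of cartilage and also a gene of the early notochord and neural tube, was highest in the library labelled dorsal control (2.49) and in the olfactory pit (2.44), and lowest in the E8.5 non-floor plate library (0.204). Col11a1, its minor fibrillar partner, had the same highest library (2.66), the olfactory pit next (1.87) and the same lowest library (0.177). Between classes neither was called, with log2 differences of 0.60 ± 0.45 for Col2a1 and 0.24 ± 0.52 for Col11a1 (limma adjusted p = 0.705 and 0.936). Col9a1, a chain of type IX collagen on the surface of cartilage fibrils, was at the floor in all neural and both epithelial libraries. It stood above it in 7 mesenchymal libraries, with 9.88 in the E9.5 maxillary arch and 7.84 and 7.78 in the mandibular arch at E10.5 and E9.5, but was not called (limma adjusted p = 0.170). Col9a3, another type IX chain, was above the floor at 1.45 in the E10.5 maxillary arch and 1.17 in the library labelled dorsal control only. Col27a1, a fibrillar chain of cartilage, varied over 0.593 to 1.78 with overlapping classes. The mean log2 level of the 5 measured cartilage markers also overlapped, at 0.65 to 2.29 in mesenchymal libraries and 0.00 to 2.34 in neural libraries.

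The epithelial libraries were compared with the mean of the other classes, in the same fit and with the same mesenchymal and neural libraries as above. Of 37 genes 2 were higher and 0 lower, against 1.32% and 0.0389% of all genes tested. Lama5, the laminin alpha chain of most epithelial basement membranes, had values of 5.83 in epidermal ectoderm and 7.82 in olfactory pit, against a highest value of 1.42 in mesenchymal libraries and 4.27 in neural libraries. Both epithelial libraries lay above all others, the 3 E8.5 neural libraries came next at 2.90 to 4.27, and E10.5 neural libraries were at the floor. The log2 difference was 2.27 ± 0.52 (limma adjusted p = 0.035). Itga3, a subunit of a laminin receptor of epithelia, had 7.89 in epidermal ectoderm and 6.11 in olfactory pit, against at most 4.12 in mesenchymal libraries (E8.5 mesoderm) and 3.74 in neural libraries (floor plate). Its log2 difference was 2.46 ± 0.57 (limma adjusted p = 0.041).

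These calls depended on the scale of the libraries. The median gene without a floor was 0.30 higher in the epithelial libraries on the log2 scale. With each library centred on its median gene, Lama5 (1.97, limma adjusted p = 0.186) and Itga3 (2.16, limma adjusted p = 0.096) were not called, and limma then called 0 of the 37 genes, against 0.42% higher and 0.0467% lower of all genes, with 800 of all genes at an unadjusted p under 0.05. As deposited, both were called without the E8.5 mesoderm, the floor plate or the library labelled medial nasal prominence, 1 of them without the caudal brain, the non-floor plate, the E9.5 maxillary arch or the dorsal control library, and neither without any 1 of the other 9 libraries. Other genes of the epithelial adhesion pathway lay in the same direction without passing the test of that first fit. Itga6, the partner of the beta-4 subunit in hemidesmosomes, had 2.41 and 1.85 in epidermal ectoderm and olfactory pit, against 0.132 to 1.60 in the other libraries. Lamc1, the gamma chain of most laminins, had 2.77 and 1.69 against 0.486 to 1.49. For both genes the epithelial libraries lay above all 14 others, with log2 differences of 1.56 ± 0.69 and 1.37 ± 0.41 (limma adjusted p = 0.546 and 0.158). Itgb6, a beta subunit found in epithelia, was above its floor in 1 library of the 16, the olfactory pit, at 5.09. Col15a1 and Lama4 were at the floor in both epithelial libraries, with adjusted p = 0.331 and 0.712 by limma. With embryonic day in the fit 3 of the 37 genes were higher and 1 lower, against 217 higher and 7 lower of all 12851 genes tested. Higher were Lama5 (2.67, limma adjusted p = 0.00092), Itga3 (2.63, limma adjusted p = 0.012) and Lamc1 (1.33, limma adjusted p = 0.040). The lower gene was Col15a1 (-1.49, limma adjusted p = 0.023). Col15a1 was above its floor in all 8 mesenchymal libraries but in only 1 neural library (lateral prominence, 0.787). It entered through the mesenchymal libraries, and the call does not place epithelial below neural libraries.

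**Figure D3:**
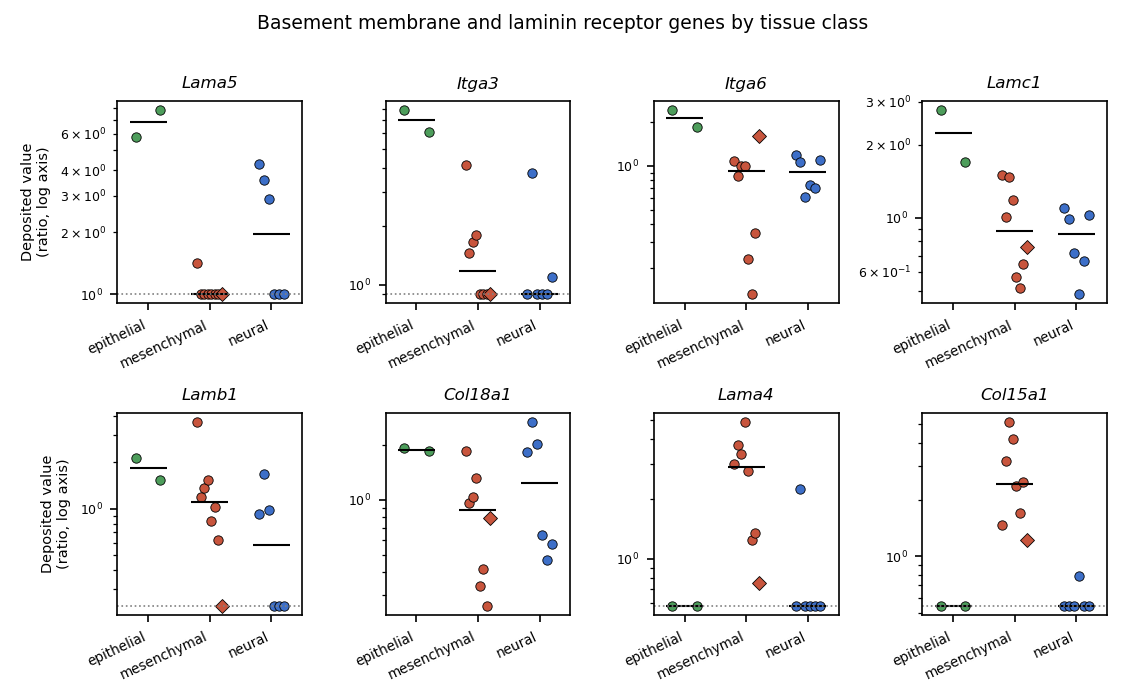
Deposited values (ratio to the median of the gene, log axis) of the basement membrane and laminin receptor genes Lama5, Itga3, Itga6, Lamc1, Lamb1, Col18a1, Lama4 and Col15a1. Epithelial libraries are on the left, then mesenchymal and neural libraries, with 1 point per library. A black bar marks the median, a dotted line the floor and a diamond the library labelled medial nasal prominence. The 2 epithelial points of Lama5, Itga3, Itga6 and Lamc1 lie above all other points, and those of Lama4 and Col15a1 lie at the floor.

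Within E9.5, epidermal ectoderm was set against the mandibular arch, both being libraries of the fit above. A gene was counted if it differed by 2-fold or more and reached 5 times its lowest value in the higher of the pair. No test is possible for 2 single libraries. Of 18 genes that reached this level, 4 were higher and 5 lower, against 17.5% and 12.0% of all such genes. Higher were Lama5 (at least 5.83-fold), Itga3 (4.78-fold), Itga6 (2.40-fold) and Col1a1 (2.07-fold). Lower were Col15a1 (at least 9.45-fold), Col9a1 (at least 7.78-fold), Lama4 (at least 5.80-fold), Itga9 (5.33-fold) and Col1a2 (2.71-fold), so that the 2 chains of type I collagen stood on opposite sides. In the E10.5 olfactory pit against E9.5 epidermal ectoderm, Col2a1 (2.43-fold) and Itgb6 (at least 5.09-fold) were higher, and Col1a1 (at least 6.06-fold) and Col1a2 (5.06-fold) lower, as 2 and 2 of 13 genes against 20.5% and 17.7% of all such genes. Stage and tissue cannot be told apart in that pair. Mesenchyme markers had a mean log2 level of 0.44 in olfactory pit and 1.11 in epidermal ectoderm, neuron markers had 3.35 in olfactory pit and 1.15 in epidermal ectoderm, and their part in these folds was not tested.

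Within neural epithelium, 3 libraries of E10.5 were compared with 3 of E8.5 to ask how matrix genes change as the neural tube matures. The regions differ between the stages, so stage and region cannot be told apart. Markers of other cells also differed without overlap, with mean log2 levels of 1.46 to 1.73 at E10.5 against 0.02 to 0.35 at E8.5 for erythroid markers, and of 1.31 to 1.71 at E10.5 against 0.49 to 0.83 at E8.5 for neuron markers, and their part in the differences was not tested. Of 22 genes tested 2 were higher and 3 lower at E10.5, against 2.96% and 16.9% of all genes tested, so that the share lower was near that of all genes. The scale of the libraries differed, with the median gene without a floor 0.35 lower at E10.5 on the log2 scale. Of all calls 14.9% were higher as deposited and 43.8% after centring, when 3 of the 22 genes were higher and 3 lower, against 7.11% and 9.12% of all genes tested.

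Col11a1 had values of 1.72, 1.05 and 2.66 in the E10.5 libraries labelled lateral prominence, central and dorsal control, against 0.434, 0.314 and 0.177 in the E8.5 caudal brain, floor plate and non-floor plate libraries. Itgb8 had 5.28, 5.89 and 4.34 in the same E10.5 libraries, against 1.19, 1.16 and 0.796 in the E8.5 libraries. For both genes every E10.5 library lay above every E8.5 library, with log2 differences of 2.55 ± 0.44 for Col11a1 (limma adjusted p = 0.0070) and 2.31 ± 0.46 for Itgb8 (limma adjusted p = 0.011), and both were called in each of the 6 fits that left out 1 library. Col4a5 had 2.10, 1.80 and 6.80 in the E10.5 libraries, against 0.708, 1.01 and 1.28 in the E8.5 libraries. Its groups did not overlap, and its log2 difference of 1.61 ± 0.55 was called only after centring (1.98, limma adjusted p = 0.037, against 0.067 as deposited). Col2a1 (1.35 ± 0.68) and Col5a2 (1.17 ± 0.61) were not called (limma adjusted p = 0.183 and 0.2004).

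Col18a1 and 2 of the 4 laminin chains tested, Lamb1 and Lama5, were lower at E10.5. Col18a1, a heparan sulphate proteoglycan of the basement membrane, had 0.640, 0.466 and 0.573 at E10.5, against 1.83, 2.66 and 2.02 at E8.5, and the log2 difference was -1.95 ± 0.27 (limma adjusted p = 0.0028). Lamb1 was at its floor of 0.233 in all 3 E10.5 libraries, against 0.929, 1.67 and 0.982 at E8.5, so that it was at least 3.98-fold higher in each E8.5 library (limma adjusted p = 0.0031). Lama5 was at its floor of 1 in all 3 E10.5 libraries, against 4.27, 3.59 and 2.90 at E8.5, at least 2.90-fold higher in each E8.5 library (limma adjusted p = 0.010). The groups of Col18a1 did not overlap. Lamb1 and Lama5 could enter the test only with all 3 E8.5 libraries above the floor, so the filter fixed their lack of overlap in advance. Their E10.5 values are a shared floor, so the test holds no spread from that group for these genes. With any 1 of the E8.5 libraries left out, Lamb1 and Lama5 were above the floor in too few libraries to be tested. With 1 of the E10.5 libraries left out, Lamb1 was called each time, while Lama5 lost its call without the lateral prominence (limma adjusted p = 0.059) or the central library (limma adjusted p = 0.066). The other laminin chains tested, Lama1 and Lamc1, had log2 differences of -0.16 ± 0.52 and -0.41 ± 0.33 (limma adjusted p = 0.847 and 0.402). Itga5, the fibronectin receptor subunit, had -1.15 ± 0.38 (limma adjusted p = 0.061).

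**Figure D4:**
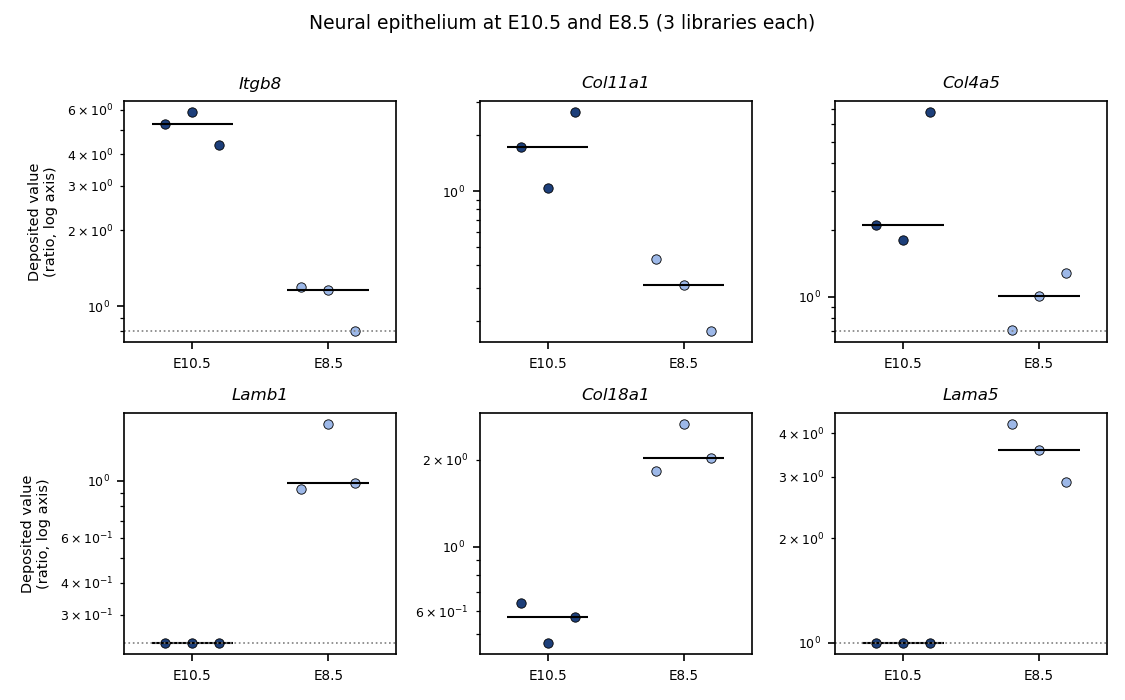
Deposited values (ratio to the median of the gene, log axis) of the 5 genes called between stages of neural epithelium, and of Col4a5, which was called only with centred libraries. The 3 E10.5 libraries are left of the 3 E8.5 libraries, with 1 point per library, a black bar at the median and a dotted line at the floor. Col11a1 and Itgb8 lie higher at E10.5, and Col18a1, Lamb1 and Lama5 lower, with no overlap in any of these 5 genes. For Lamb1 and Lama5, at the floor in all 3 E10.5 libraries, the filter fixed the lack of overlap in advance.

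At E8.5, single neural and mesodermal libraries were set against non-floor plate neural epithelium. In the floor plate, 4 of 7 genes with a level of at least 5 were higher and 0 lower, against 16.2% and 22.0% of all such genes. They were Col1a1 (at least 15.6-fold), Itgb5 (5.46-fold), Col1a2 (4.91-fold) and Itga5 (2.67-fold). In mesoderm 14 of 16 genes were higher and 0 lower, against 23.6% and 18.6%. Mesoderm held the highest value of all libraries for Col4a1 (4.52), Col4a2 (4.64), Col26a1 (10.3), Col5a1 (4.97), Lama1 (3.28), Lamb1 (3.67), Itga5 (2.84), Itga8 (7.28), Itga9 (8.31) and Itgb1 (2.27). Lama1 is the laminin alpha chain of the earliest embryonic basement membranes. Set against that E8.5 mesoderm, E9.5 cranial mesenchyme had 2 of 17 genes higher, Col1a2 (3.48-fold) and Col15a1 (2.19-fold), and 4 lower, Itga5 (3.20-fold), Lamb1 (3.08-fold), Col5a1 (2.69-fold) and Itga9 (2.10-fold), against 16.8% and 12.6% of all such genes. The mean log2 level of the endothelium markers was 1.90 in cranial mesenchyme and 2.99 in mesoderm, that of the erythroid markers was 5.34 in cranial mesenchyme and 1.52 in mesoderm, and their part in these folds was not tested.

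The mesenchymal class of E10.5 (4 libraries) was compared with that of E9.5 (3 libraries), here called facial mesenchyme. The E10.5 group includes the library labelled medial nasal prominence, whose markers go against its label. Apart from the 2 arches the regions differ between the stages, so stage and region cannot be told apart in this fit. Limma called 0 of 31 genes higher and 1 lower at E10.5, against 0.139% and 1.49% of all genes tested, with 12 of the 31 at an unadjusted p under 0.05. Col5a1 had values of 0.719, 0.684, 0.684 and 0.821 in the lateral nasal prominence, the mandibular arch, the maxillary arch and the library labelled medial nasal prominence at E10.5, against 1.85, 2.06 and 2.90 in cranial mesenchyme, mandibular arch and maxillary arch at E9.5. Every E10.5 library lay below every E9.5 library, with a log2 difference of -1.62 ± 0.27 (limma adjusted p = 0.041). The median gene without a floor was itself 0.69 lower at E10.5 on the log2 scale, and with centred libraries Col5a1 stood at -0.92 and was not called (limma adjusted p = 0.129).

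Col5a1 was not called without any 1 of the other 6 libraries (limma adjusted p = 0.093 to 0.156), and was called without the library labelled medial nasal prominence. Without it, 1 of 29 genes was higher and 6 were lower, against 1.42% and 39.1% of all genes tested. The higher gene was Col1a1, with 2.08, 2.82 and 2.54 at E10.5 in lateral nasal prominence, mandibular and maxillary arch, against 0.713, 1.20 and 1.05 at E9.5 in cranial mesenchyme, mandibular and maxillary arch, a log2 difference of 1.35 (limma adjusted p = 0.009). The lower genes were Col5a1, Col18a1, Lama1, Lamc1, Itga6 and Itgb1, with log2 differences of -2.11 to -1.08. With the remaining libraries also centred, 5 genes were higher and 0 lower, against 7.70% and 7.69% of all genes tested. They were Col1a1 (2.27, limma adjusted p = 0.007), Col25a1, a neuronal transmembrane collagen (1.77, limma adjusted p = 0.030), Itgb5 (1.60, limma adjusted p = 0.017), Col2a1 (1.26, limma adjusted p = 0.026) and Col27a1 (1.20, limma adjusted p = 0.043). Col25a1 was at the floor in every E9.5 library of this fit. It entered only through E10.5 lateral nasal prominence, mandibular and maxillary arch (1.11, 2.94 and 1.79). Its centred difference includes the scale shift applied to those floor values. Without the library labelled medial nasal prominence, Col1a1 was thus called higher on both scales, and the lower genes as deposited only. With that library included, where Col1a1 was at its floor of 0.410, Col1a1 was called on neither scale. Among the 2 arches of each stage it was called as deposited (1.26, limma adjusted p = 0.031), but not with centred libraries or paired by arch.

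The arches were sampled at both stages, 1 library each, which gives folds with no test. As deposited, 2 of 16 genes were higher and 5 lower in the E10.5 than in the E9.5 mandibular arch, against 8.56% and 75.2% of all such genes, and 3 of 18 were higher and 8 lower in the maxillary arch, against 7.43% and 83.1%. Col1a1 was higher in both, 2.347-fold in the mandibular and 2.43-fold in the maxillary arch. Col3a1 was 2.38-fold higher in the mandibular arch only, with 5.002 at E10.5 against 9.40 at E9.5 in the maxillary arch. Col1a2 was 2.52-fold and Itga8 2.38-fold higher in the maxillary arch. Lower in both were Itga6, 7.62-fold in the mandibular and 2.88-fold in the maxillary arch, and Lama4, 2.70-fold and 3.64-fold in the same order, where most genes were lower too.

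Other genes were counted as lower in 1 arch. In the mandibular arch these were Itga9 (4.24-fold), Col15a1 (3.03-fold) and Itgav (2.39-fold), which stood 1.52-fold, 1.70-fold and 1.59-fold lower in the maxillary arch. In the maxillary arch they were Col9a1 (7.67-fold), Col23a1 (5.08-fold), Col18a1 (5.01-fold), Col4a2 (2.69-fold), Col4a1 (2.50-fold) and Lamb1 (2.46-fold). Of these Col18a1 was 2.50-fold lower in the mandibular arch as well, where it did not reach 5 times its lowest value, and Col23a1, Col4a2, Col4a1 and Lamb1 were 1.17-fold to 1.40-fold lower there. Col9a1 itself stood at 7.84 at E10.5 and 7.78 at E9.5 in the mandibular arch. The median gene without a floor fell by 0.99 (mandibular) and 1.16 (maxillary) on the log2 scale. Relative to it, 6 genes were higher and 2 lower in the mandibular arch, and 4 higher and 3 lower in the maxillary arch, against 14.1% and 52.4%, and 10.7% and 63.6%, of all such genes. The lower genes were then Itga6 and Itga9 in the mandibular arch and Col9a1, Col18a1 and Col23a1 in the maxillary arch, so that Lama4 was counted in neither arch and Itga6 in 1. Col1a1 and Itgb5 were higher in both arches on that scale. Endothelium markers were at mean log2 levels of 0.85 and 0.74 in the E10.5 mandibular and maxillary arches, against 1.83 and 2.20 at E9.5, and their part in the Col4a1, Col4a2, Col15a1 and Lama4 folds was not tested.

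**Figure D5:**
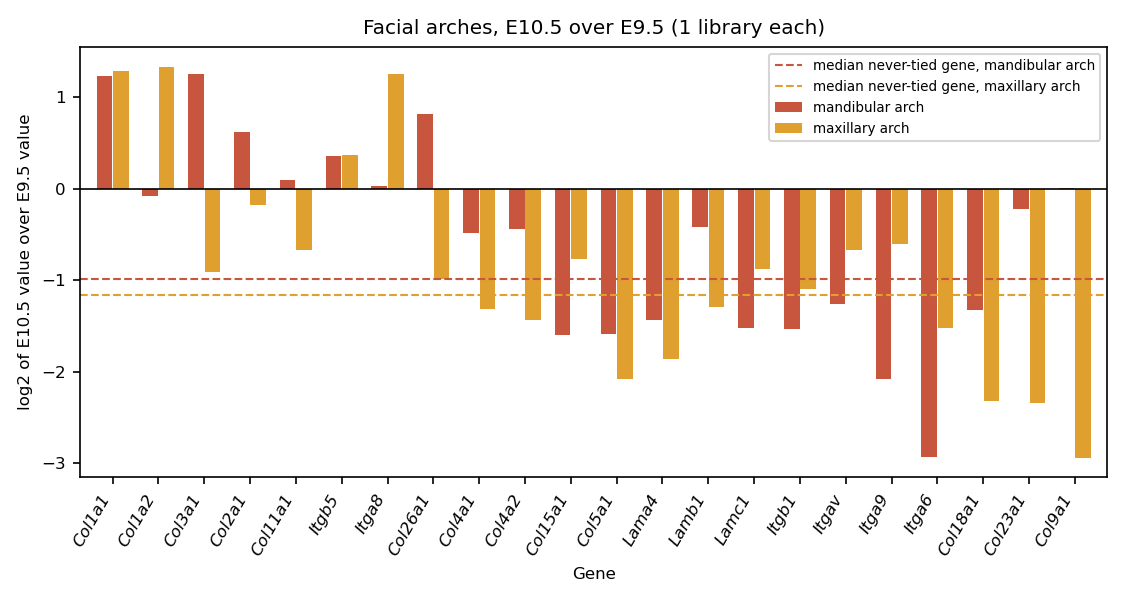
Bars of the log2 ratio of the E10.5 over the E9.5 library for genes in the mandibular arch (red) and the maxillary arch (yellow), with dashed lines at the ratio of the median gene without a floor in each arch. Col1a1 lies above 0 in both arches, and Itga6 and Lama4 lie below the dashed line of each arch.

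Partner chains were set side by side as a description over libraries that share their depth and scale. Col4a1 and Col4a2, which wind into 1 trimer and share the start region shown above, had a Pearson correlation of 0.974 and a Spearman correlation of 0.994 of log2 values over 16 libraries. Without the 2 libraries farthest from the median (E8.5 mesoderm and E9.5 cranial mesenchyme) Pearson's r was 0.959. Their ratio departed most in the E8.5 non-floor plate library, with 0.569 for Col4a1 and 0.301 for Col4a2. Col1a1 and Col1a2 had a Pearson correlation of 0.671 and a Spearman correlation of 0.698 over the 16 libraries, Pearson's r was 0.806 without the 2 libraries farthest from the median (E8.5 floor plate and E10.5 mandibular arch), and it was 0.114 over the 7 mesenchymal libraries without the one labelled medial nasal prominence. They parted in opposite directions in E8.5 floor plate, where Col1a1 had 6.42 and Col1a2 had 0.860, and in E9.5 cranial mesenchyme, where Col1a1 had 0.713 and Col1a2 had 6.52.

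Receptor pairs and laminin chains had lower correlations over the 16 libraries. Itgav with Itgb5 had a Pearson correlation of 0.417 over 16 libraries and -0.327 over the 8 mesenchymal libraries, and Itgav with Itgb8 had -0.081 over 16. Itga4 with Itgb1 had 0.302, and -0.279 without the 2 libraries farthest from the median (E8.5 mesoderm and E9.5 cranial mesenchyme). Lamc1 had 0.451 with Lama1 as deposited and 0.001 with centred libraries, and 0.079 with Lama4. Over the 7 mesenchymal libraries without the one labelled medial nasal prominence the order differed, with Pearson's r of 0.528 for Itga4 with Itgb1, 0.724 for Lamc1 with Lama1 and 0.732 for Lamc1 with Lama4. Itgav had -0.584 with Itgb5 and -0.398 with Itgb8. Without the 2 libraries farthest from the median of each pair's first gene, these 5 values were 0.010, 0.647, 0.716, -0.085 and -0.354 in the same order. Over these 7 libraries the values are as deposited, and centred ones were not computed.

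Genes that act with these families were counted from lists of collagen biosynthesis, basement membrane and integrin adaptor genes. Between mesenchymal and neural libraries 1 of 20 collagen biosynthesis genes was higher and 0 lower, against 0.591% and 0.514% of all genes tested. It was Pcolce, which enhances the cleavage of fibrillar procollagens (log2 difference 2.67 ± 0.57, limma adjusted p = 0.031). Of 14 basement membrane partners 1 was higher and 0 lower, Nid1, which links laminin to type IV collagen (2.51 ± 0.42, limma adjusted p = 0.011). Of 13 integrin adaptors limma called 0, with 4 at an unadjusted p under 0.05. Without the library labelled medial nasal prominence it called 3 of the 14 basement membrane partners higher, Nid1, the second nidogen Nid2 (1.87 ± 0.37, limma adjusted p = 0.0084) and Frem1 (1.97 ± 0.48, limma adjusted p = 0.027), and 1 adaptor, Tln1, which links integrins to actin (1.30 ± 0.32, limma adjusted p = 0.033), against 1.31% of all genes tested, with Pcolce again the 1 biosynthesis gene. With centred libraries 2 adaptors were higher, Tln1 and Vcl, another link to actin, against 1.29% higher and 0.763% lower of all genes tested.

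In epithelial libraries 2 of 14 basement membrane partners were higher, against 1.32% of all genes tested, namely Fras1, a protein beneath embryonic epidermis (2.08 ± 0.30, limma adjusted p = 0.00070), and Npnt, the nephronectin ligand of Itga8 (1.83 ± 0.30, limma adjusted p = 0.0031). The adaptor Parva was the 1 of 13 higher (1.70 ± 0.39, limma adjusted p = 0.036), and limma called 0 of 20 biosynthesis genes, with 0 at an unadjusted p under 0.05. Fras1, Npnt and Parva were also called without the library labelled medial nasal prominence, and with centred libraries Parva alone was called.

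In neural epithelium 3 of 18 collagen biosynthesis genes were lower at E10.5 and 0 higher as deposited, against 16.9% and 2.96% of all genes tested, so that the share lower was near that of all genes. They were P4hb and Crtap, which act in proline hydroxylation, and the isomerase Ppib, with log2 differences of -2.19 ± 0.23, -1.94 ± 0.32 and -2.09 ± 0.38 (limma adjusted p = 0.0016, 0.0059 and 0.0081). Of 13 basement membrane partners Frem2, a partner of Fras1, was lower (-2.11 ± 0.58, limma adjusted p = 0.035), as was the kinase-like adaptor Ilk of 13 adaptors (-1.10 ± 0.24, limma adjusted p = 0.014). With centred libraries P4hb, Crtap and Ppib were again called lower, Frem2 and Ilk were not, and the biosynthesis gene Leprel2 was called higher at E10.5 (1.30 ± 0.32, limma adjusted p = 0.028), against 7.11% higher and 9.12% lower of all genes tested.

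In facial mesenchyme 1 gene of each list was lower at E10.5 as deposited, against 1.49% of all genes tested. They were Fkbp10 of 19 (-2.16 ± 0.41, limma adjusted p = 0.042), Hspg2, which encodes perlecan, of 11 (-2.12 ± 0.42, limma adjusted p = 0.046), and the focal adhesion gene Pxn of 13 (-1.67 ± 0.30, limma adjusted p = 0.041). Without the library labelled medial nasal prominence 10 of the 19 biosynthesis genes, 6 of the 11 basement membrane partners and 6 of the 13 adaptors were lower and 0 higher, where 39.1% of all genes tested were lower. Among them were Fkbp10, Serpinh1, the collagen chaperone (-2.55 ± 0.31, limma adjusted p = 0.0015), Hspg2, Pxn and Ilk. With the remaining libraries also centred, 6 biosynthesis genes, 2 basement membrane partners (Hspg2 and Dag1) and the adaptor Ilk were lower, and Npnt was higher (1.71 ± 0.25, limma adjusted p = 0.0068), against 7.69% lower and 7.70% higher of all genes tested. Npnt was at its floor in every E9.5 library of this fit. It entered only through E10.5 lateral nasal prominence, mandibular and maxillary arch (1.75, 1.59 and 1.84). Its centred difference includes the scale shift applied to those floor values. With all 7 libraries centred Hspg2 alone was called, against 0.316% lower and 0.297% higher of all genes tested. Median log2 differences over all genes tested, as deposited, were -0.35 between the neural and -0.66 between the facial stages.

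The 11 genes above the floor in fewer than 3 libraries entered no test. Of these, 7 were above it in 1 library each, namely Lama2, the laminin chain of muscle, in E10.5 lateral nasal prominence (3.16), Col6a3, of the beaded filament collagen VI, in the same library (1.65), Col14a1, which binds fibrils, in E9.5 cranial mesenchyme (1.85), Col17a1, of hemidesmosomes, in E10.5 maxillary arch (1.11), Col4a6, a minor type IV chain, in the library labelled dorsal control (1.01), Itga10, a receptor for cartilage collagen, in E8.5 floor plate (1.05), and Itgb6, given above. Another 4 were above it in 2 libraries each. Col13a1, a transmembrane collagen, and Itga2b, the platelet receptor subunit, were so in E8.5 mesoderm (1.86 and 1.55) and E9.5 cranial mesenchyme (1.38 and 2.49). Col7a1, of anchoring fibrils, was at 2.31 in E9.5 cranial mesenchyme and 1.33 in the library labelled dorsal control, and Col9a3 is given above.

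The minor genes Col12a1, Col16a1, Col6a2, Col25a1 and Lamb2 were called in no comparison between classes. Col12a1, on the surface of type I fibrils, was highest in the library labelled dorsal control (4.49) and in E8.5 mesoderm (3.70), Col16a1 in E10.5 lateral nasal prominence (1.84), Col6a2, of collagen VI, in E8.5 mesoderm (1.495), and Col25a1 in the E10.5 mandibular arch (2.94). Lamb2, a laminin beta chain of nerve and muscle junctions, was at most 2.06, in the olfactory pit.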

How the data were processed

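Total RNA was extracted with the ZR RNA MicroPrep kit and sequenced in single-end runs of 50 bases (Illumina), per the labels' protocols, at a stated depth of over 40000000 reads. The build mm9 and the tools Bowtie, TopHat, TopHat2 and Cufflinks are named in the submitters' processing notes. Their versions, annotation and filters were not given in the sources used here, and exact depths are unknown, so no counting error could be given. The deposited values are a ratio, worked out from the values: each of the 15876 genes has a median of 1 over the 16 libraries, so the authors divided each gene by its own median, after raising low values to a floor. In 8794 genes at least 2 libraries share the lowest value, and the other 7082 genes have no such floor. What unit was divided is not known.

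Class and stage comparisons used limma 3.58.1 with a mean-variance trend (R 4.3.3, tables in Python 3.11.15) on log2 of the deposited ratio, with no pseudocount, for genes that exceeded their floor in 3 or more of the fitted libraries. P-values were adjusted by Benjamini-Hochberg over all genes of a fit. A gene was called when this p was under 0.05 and the difference was 2-fold or more. The 3 classes were fitted together over 16 libraries, and each stage comparison on its own libraries. The class comparisons share libraries, and the stage comparisons use part of the same libraries. Pairs of single libraries have no test, and a gene counted if it differed by 2-fold or more and reached 5 times its lowest value. Steps that compute tests were tested on simulated data. Alternatives were libraries centred on their median gene without a floor, log2 of the level plus 1, no filter, genes without a floor only, no trend, embryonic day in the fit, single stages, and each library left out. Fits that combined centring with leaving out the library labelled medial nasal prominence, the E10.5 classes without that library, 2 arches per stage with and without pairing by arch, and single pairs relative to the median gene were chosen after seeing the data. Genes named with full values were those called in a fit, up to 10 per direction, and the listed partner chains, and others are given by range. The genes and lists were chosen with earlier results of these data known. Promoters come from RefSeq (GRCm38.p6), and no mm9 coordinates were used.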

Additional observations from a re-analysis of the deposited data

Results flagged for a closer look

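In each class of 6 or 8 libraries the highest and lowest library of each gene was compared with the rest, and 18 of 70 such groups held a library set apart by a gap of more than 0.526 (8 libraries) or 0.625 (6 libraries) of the range on the log2 scale. Chance gives such a gap in about 1 in 20 groups, and genes near their floor add to it. Where only 1 library of a class is above the floor, the gap is the whole range and the flag is certain. The rate of 1 in 20 does not apply there. This was so for Col3a1, Col15a1, Lama4, Col12a1, Col25a1 and Col24a1 among neural libraries, and for Lama5 among mesenchymal libraries. The library labelled medial nasal prominence was set apart for 5 genes among mesenchymal libraries. It was low for Itgb5 at 0.237 (next lowest 1.05), for Col1a2 at 0.146 (next 1.87) and for Col3a1 at 0.392 (next 2.65), and high for Itgb8 at 8.72 (next 0.836) and for Col4a5 at 1.92 (next 0.993).

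The E8.5 floor plate was the high library for 4 genes among neural libraries, with Col1a1 at 6.42 (next 0.954), Itga3 at 3.74 (next 1.10), Lama4 at 2.25 (next 0.579) and Col3a1 at 0.468 (next 0.392). E8.5 mesoderm was the high library for 3 genes among mesenchymal libraries, with Itga3 at 4.12 (next 1.81), Lama5 at 1.42 (next 1) and Col6a2 at 1.495 (next 1.14). The library labelled dorsal control was high among neural libraries for Col12a1 at 4.49 (next 1) and for Col25a1 at 1.01 (next 1). In the same class the library labelled central was high for Col16a1 at 1.38 (next 1.01), lateral prominence neural epithelium for Col15a1 at 0.787 (next 0.546) and the E8.5 non-floor plate library for Col24a1 at 1.92 (next 1). The E10.5 maxillary arch was the high mesenchymal library for Col24a1 at 3.25 (next 1.18).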

How the results depend on the processing

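Replicate numbers are all 1 and pair nothing, but the arches were sampled at both facial stages, so those 2 pairs were also fitted with the arch as a replicate block. For the genes called in a comparison, 169 repeats with another setting kept direction and call, 135 kept the direction and lost the call, and 0 reversed. Repeats in which a gene could not be tested are not in this count, such as Lamb1 and Lama5 with an E8.5 neural library left out. In mesenchymal against neural libraries (8 genes described here, 142 of all genes), limma called 4 and 82 with the level plus 1, 3 with no filter, 0 and 12 among genes without a floor (717 at an unadjusted p under 0.05), 4 and 83 with embryonic day in the fit, 0 and 0 at E10.5, and 16 and 1093 at E10.5 without the library labelled medial nasal prominence. Centring gave 264 of all genes, the same without that library 501, and the libraries of E8.5 and E9.5 gave 689. Leaving out 1 library gave 2 to 11 and 64 to 411, where the highest counts came without the library labelled medial nasal prominence. For epithelial libraries (2 and 174), centring gave 0 and 60, centring without that library 0 and 63 (958 at an unadjusted p under 0.05), genes without a floor 0 and 3 (330), and embryonic day in the fit 4 genes described here. Leaving out 1 library gave 0 to 2 and 81 to 206, with 87 and 81 of all genes without epidermal ectoderm and olfactory pit. For neural stages (5 and 2077), the level plus 1 gave 1293 of all genes, no filter 1065, and genes without a floor 3 genes described here. Leaving out 1 library gave 3 to 5 and 1010 to 2307, with 1010, 1281 and 1351 without the caudal brain, non-floor plate and central libraries. For facial stages (1 and 175), centring gave 0 and 66 (2592 at an unadjusted p under 0.05), the level plus 1 gave 0 and 0 (3374), genes without a floor 0 and 13 (2390), centring without the library labelled medial nasal prominence 5 and 1591, 2 arches per stage 6 and 3722, and the same centred 0 and 56 (2273). Paired by arch, with 1 residual degree of freedom, the 2 arches gave 1 (Lama4, lower, limma adjusted p = 0.049) and 1903, and the same centred 0 and 104 (1804). Leaving out 1 library gave 0 to 7 and 0 to 4189, with 7 and 4189 without the library labelled medial nasal prominence and 0 to 5 of all genes without any 1 of the other 6. Relative to the median gene, the E10.5 over E9.5 mandibular arch gave 6 higher and 2 lower genes, and the maxillary arch 3 lower. The cause of these shifts was not tested. Genes at the floor limit what can be seen, since changes below it are not visible.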
